A study of Mus musculus with 6 samples.

Results

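The MHC class II antigen presentation pathway was followed through 10 of its genes in mouse leukaemia cells with and without Dusp6: H2-Aa, H2-Ab1, H2-Eb1, H2-DMa, H2-DMb1, H2-Oa, H2-Ob, Cd74, Ciita and Ctss. They were chosen by name from the pathway, with earlier results of these data known. Each gene was represented by the brightest probe set that carried its symbol alone, and 9 of the 10 genes had one, of 19938 genes measured in the same way. H2-DMb1 shares its probe set with H2-DMb2, so that probe set is described beside the 9 genes and is not counted among them. The cells were pre-B cells transformed with BCR-ABL1, the fusion kinase that drives Philadelphia chromosome-positive acute lymphoblastic leukaemia. The wild-type group (labelled Dusp6 WT) and the knockout group (labelled Dusp6 KO) held 3 arrays each, all of the strain C57Bl/6-SV129j, and carried the same oncogene. The labels give neither the age of the mice nor the vector of the oncogene, and they do not state that the 3 samples of a group are from different animals, cultures or clones. The spread behind the p-values is therefore that of these samples and may be technical.

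MHC class II molecules are pairs of an alpha and a beta chain that display peptides from endosomes to CD4 T cells. New pairs bind the invariant chain, the product of Cd74, which blocks the peptide groove and sorts the complex to endosomes, where proteases such as cathepsin S (Ctss) trim it. H2-DM then exchanges the last invariant chain fragment for peptide, and H2-O, which is found mostly in B cells and thymic epithelium, restrains H2-DM. The coactivator Ciita is recruited to the promoters of these genes by factors bound at conserved X and Y boxes, and class II levels are low in early B cell precursors and rise as B cells mature.

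The promoters of 5 of the 10 genes, H2-Oa, H2-DMb1, H2-Ob, H2-Aa and H2-Eb1, and that of H2-Eb2, a further class II gene, held the X box core and the Y box at the spacing searched. The promoters of Cd74, H2-Ab1 and Ciita were not analysed here. RefSeq windows of GRCm38.p6 ran from 250 bases before to 50 bases after a transcription start. They were searched for the Y box letters TGATTGG and for the X box core GNAAC followed by TGATTGG after 15 to 30 other bases. Both strands were searched, except that in the gene windows described here the spaced pair was sought only on the strand of the gene. The letters and the spacing were set after looking at the class II windows. The X box core and the Y box cannot overlap at this spacing. The following stretches are shown because they are the element shared by genes that were called higher (H2-Oa, H2-Ob, H2-Eb2 and the shared H2-DMb probe set) and genes that were not called (H2-Aa and H2-Eb1). Capitals mark the X box core and the Y box, and each stretch lies before the start site.
H2-Oa (chr17:34092288-34092350, plus strand): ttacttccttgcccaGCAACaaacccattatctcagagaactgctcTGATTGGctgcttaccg
H2-DMb1 (chr17:34153082-34153144, plus strand): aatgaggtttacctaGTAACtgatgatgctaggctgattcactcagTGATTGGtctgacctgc
H2-Ob (chr17:34238803-34238862, plus strand): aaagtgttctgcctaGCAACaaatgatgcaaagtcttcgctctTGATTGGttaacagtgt
H2-Aa (chr17:34287857-34287919, minus strand): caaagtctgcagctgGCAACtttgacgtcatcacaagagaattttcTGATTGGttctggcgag
H2-Eb1 (chr17:34305761-34305822, plus strand): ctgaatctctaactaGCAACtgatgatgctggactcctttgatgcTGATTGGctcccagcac
H2-Eb2 (chr17:34325528-34325589, plus strand): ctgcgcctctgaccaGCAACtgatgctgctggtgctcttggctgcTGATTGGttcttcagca
Counted on either strand, the spaced pair occurred in 0.469% of all 32851 promoter windows and the Y box letters alone in 7.82%. The window of H2-DMb2 held the Y box letters, without the spaced pair on the strand of the gene. Neither motif was found in the windows of H2-DMa and Ctss, which says only that these letters are not in those windows. The X box core began 76 bases before the start of H2-Oa, 81 before H2-Aa, 87 before H2-Ob, 91 before H2-Eb1, 94 before H2-DMb1 and 132 before H2-Eb2.

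Of the classical chain genes, H2-Ab1 was lower in the knockout cells and H2-Aa and H2-Eb1 were not called, while Cd74 and the H2-O, H2-DM and cathepsin S genes were higher. Of the 9 members, 5 rose (Cd74, H2-Oa, H2-DMa, Ctss and H2-Ob), 1 fell (H2-Ab1) and 3 were not called (H2-Aa, H2-Eb1 and Ciita). Over all 19938 genes, 9.66% were called higher and 10.2% lower, 19.8% in all. A gene was called at a limma adjusted p under 0.05, with Benjamini-Hochberg adjustment over all genes. The median log2 difference, knockout minus wild type, was 0.31 over the 9 members and 0.0018 over all genes. All values below are log2 signals of the authors' RMA values, on which a difference of 1 is a doubling, and levels of different probe sets are not comparable with each other.

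**Figure D1:**
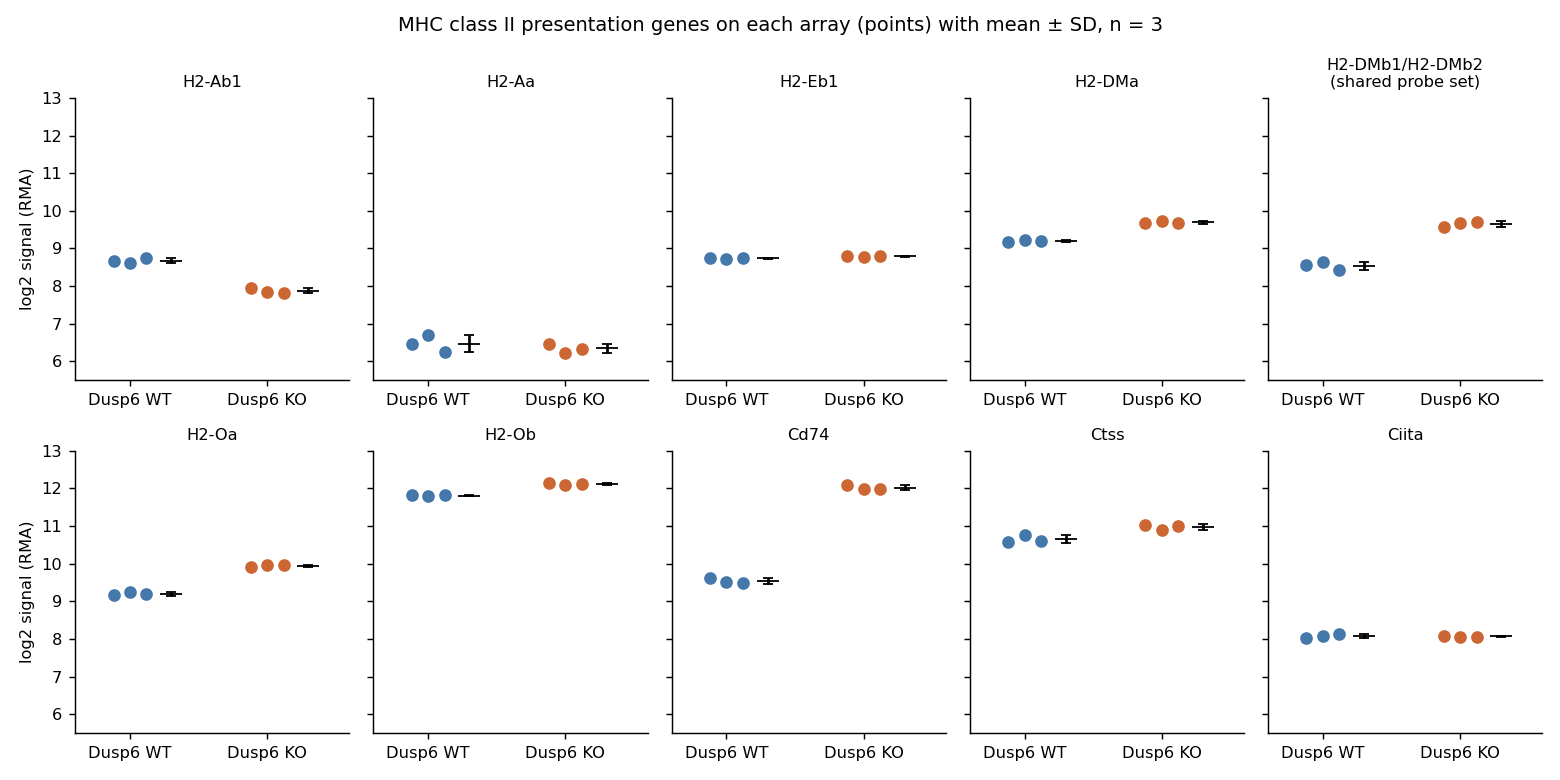
Log2 signal (vertical axis) of 9 class II pathway genes and of the probe set shared by H2-DMb1 and H2-DMb2 on each of the 6 arrays, by genotype (horizontal axis). Points are arrays, and the bar beside them is the mean ± SD of 3 arrays. Cd74 lies between 9.50 and 9.63 in wild type and between 11.99 and 12.09 in knockout, H2-Ab1 is lower on every knockout array, and the Ciita points of the genotypes overlap.

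Cd74, the invariant chain gene, had the largest difference of the members. The 3 wild-type arrays read 9.63, 9.50 and 9.50, and the 3 knockout arrays read 12.09, 11.99 and 11.99. Every knockout array lay above every wild-type array by more than 2 log2 units. Its mean went from 9.54 ± 0.076 to 12.02 ± 0.058 (SD, 3 arrays each), a 5.58-fold rise with a 95% confidence interval of 5.13-fold to 6.06-fold (limma adjusted p = 2.4e-09). It ranked 22nd of all genes from the highest difference.

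The classical chain genes did not follow the invariant chain. H2-Ab1, which encodes the beta chain of the I-A molecule, read 8.67, 8.60 and 8.75 in wild type and 7.95, 7.84 and 7.82 in knockout. The groups did not overlap, and H2-Ab1 was 1.75-fold lower in the knockout cells (log2 difference −0.81 ± 0.055, SE; limma adjusted p = 6.2e-06). Its partner H2-Aa, the I-A alpha chain gene, read 6.44, 6.71 and 6.25 in wild type and 6.47, 6.23 and 6.33 in knockout. These values overlapped and lay below the lower quartile of genes on every array (7.42 to 7.49), so H2-Aa was dim in both genotypes. Its difference of −0.13 was not called (limma adjusted p = 0.48), with a 95% confidence interval of −0.36 to 0.11. H2-Eb1, the I-E beta chain gene, read 8.73, 8.71 and 8.75 in wild type and 8.79, 8.77 and 8.80 in knockout. The groups did not overlap, as for 35.7% of all genes, but the difference of 0.056 was not called (limma adjusted p = 0.39; 95% confidence interval −0.032 to 0.15).

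Other class II chain loci were taken from a list of 3, of which 2 had a probe set of their own. H2-Eb2, a beta chain gene beside H2-Eb1, read 8.59, 8.65 and 8.72 in wild type and 9.18, 9.46 and 9.30 in knockout. It rose by 0.66 ± 0.070 (SE; limma adjusted p = 0.00012), and its groups did not overlap. H2-Ea encodes the I-E alpha chain, and the C57BL/6 strain carries a defective copy. It stayed below the lower quartile of genes on all 6 arrays (6.91 to 7.07) and was not called.

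The genes of the peptide exchange machinery rose together. H2-DMa, the alpha chain gene of the H2-DM exchange factor, read 9.18, 9.22 and 9.18 in wild type and 9.68, 9.73 and 9.66 in knockout, a 1.41-fold rise (log2 difference 0.50 ± 0.042, SE; limma adjusted p = 2.5e-05). The probe set shared by the beta chain genes H2-DMb1 and H2-DMb2 read 8.56, 8.63 and 8.42 in wild type and 9.56, 9.67 and 9.71 in knockout. It was 2.16-fold higher (95% confidence interval 1.96-fold to 2.39-fold; limma adjusted p = 1.7e-06), and the share of each gene in it cannot be told apart. For both probe sets every knockout array exceeded every wild-type array.

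The chain genes of the H2-DM inhibitor H2-O were also higher. H2-Oa, its alpha chain gene, read 9.16, 9.25 and 9.19 in wild type and 9.91, 9.97 and 9.96 in knockout, a 1.68-fold rise (log2 difference 0.75 ± 0.044, SE; limma adjusted p = 2.1e-06). H2-Ob, its beta chain gene, read 11.83, 11.79 and 11.82 in wild type and 12.15, 12.11 and 12.12 in knockout, a 1.24-fold rise (0.31 ± 0.040, SE; limma adjusted p = 0.00040). Neither gene had overlapping groups. The spread within a genotype was at most 0.046 (SD, n = 3) for both genes.

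Ctss, the protease gene that acts on the invariant chain, read 10.58, 10.77 and 10.62 in wild type and 11.03, 10.90 and 11.00 in knockout. The groups came close without overlapping, and the rise was 1.25-fold (0.32 ± 0.060, SE; limma adjusted p = 0.0044). Ciita, the coactivator gene, read 8.03, 8.08 and 8.14 in wild type and 8.08, 8.06 and 8.06 in knockout. The knockout arrays lay inside the wild-type range, and the difference of −0.015 was not called (limma adjusted p = 0.87). Its 95% confidence interval ran from −0.11 to 0.084. Without wild-type replicate 3 the Ciita difference was 0.013, so its sign is not determined. The Ciita signal lay below the median of genes (8.60 to 8.65) on every array, and the filter at the median signal dropped it.

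**Figure D2:**
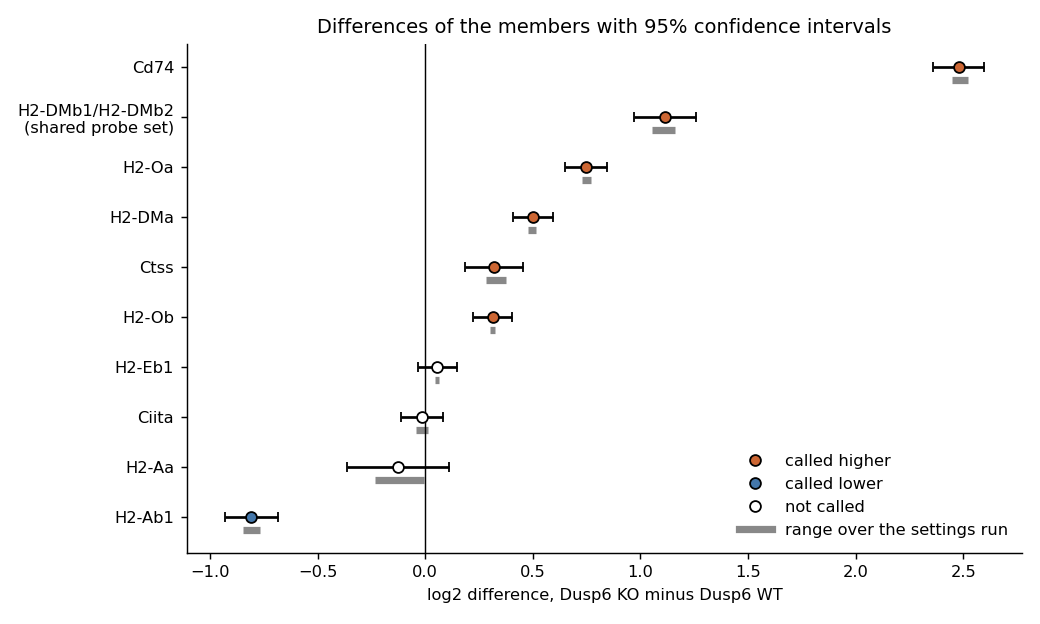
Log2 difference, knockout minus wild type (horizontal axis), of each class II pathway gene and the shared H2-DMb probe set. Points are limma estimates with 95% confidence intervals, filled where called, and grey bars span the values over the settings run. The order runs from H2-Ab1 at −0.81 to Cd74 at 2.48, and the intervals of H2-Aa, Ciita and H2-Eb1 include 0.

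Differences between 2 probe sets were also taken within each array, for 4 pairs of genes. The signal of Cd74 minus that of H2-Ab1 went from 0.87 ± 0.11 in wild-type to 4.15 ± 0.013 in knockout cells (SD over 3 arrays), a shift of 3.29. H2-Oa minus H2-Ob shifted by 0.43, and H2-DMa minus the shared H2-DMb probe set by −0.61. No shift is given for the fourth pair, H2-Aa and H2-Ab1, because H2-Aa was below the lower quartile on every array. The groups did not overlap in these 3 pairs. Each had p = 0.1 in a two-sided exact permutation test, also after adjustment over all 4, which is the smallest p that 3 against 3 arrays allow. These values describe unequal change of 2 probe sets and not the amounts of the chains.

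The genes whose profiles over the 6 arrays came closest to Cd74 were Il2ra, Igf2bp3, Slamf6 and Zfp709. Likeness was the Euclidean distance between log2 profiles centred on each gene's mean, and the distances were 0.099, 0.16, 0.22 and 0.27. A small distance requires a similar difference between the genotypes, so the differences given here follow from the choice of genes. For the genes closest to Cd74 the log2 differences lay between 2.39 (Zfp709) and 2.52 (Il2ra). Closest to H2-Ab1 were Capsl, Gng12, Gm5111 and Olfml2b at distances of 0.074, 0.12, 0.13 and 0.13, with differences from −0.85 (Gm5111) to −0.71 (Olfml2b).

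The H2 genes lie in a block on chromosome 17, and Cd74, Ciita and Ctss lie outside it. In the order of the reference annotation the block begins with H2-Oa, passes H2-DMa, the H2-DMb genes and H2-Ob, and continues with H2-Ab1, H2-Aa, H2-Eb1, H2-Eb2 and H2-Ea. H2-Ob, which rose, and H2-Ab1, which fell, are adjacent in this order. For 23 measured genes of a list that lie in or beside the block, the median difference was 0.0056. By limma's adjusted p 4 of them rose and 0 fell (6 and 2 at an unadjusted p under 0.05). The shares called over all genes by adjusted p were 9.66% higher and 10.2% lower. The 4 listed genes that rose by adjusted p were B3galt4 (0.28), Tap2 (0.25), Slc39a7 (0.25) and Tapbp (0.17). Tap2 is a subunit of the class I peptide transporter, Slc39a7 a zinc transporter gene, and Tapbp encodes the class I loading factor tapasin. Tapbp lost its call without wild-type replicate 3 (limma adjusted p = 0.062), and without wild-type replicate 1 the thioesterase gene Ppt2 fell (−0.19). Ppt2 was also called lower with a repeated quantile normalization (limma adjusted p = 0.039) and with median centring (0.048). Inside the block, Brd2, Psmb9, Tap1, Psmb8 and Tap2 ranged from −0.089 to 0.25, and 1 of these 5 genes was called.

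**Figure D3:**
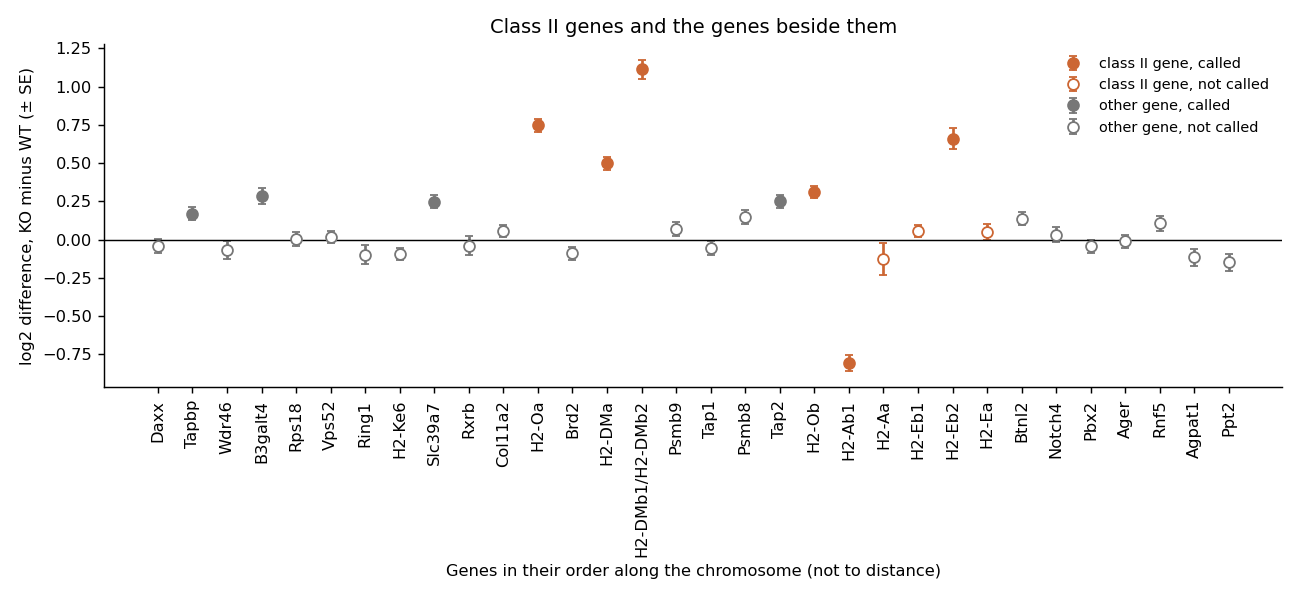
Log2 difference, knockout minus wild type, ± SE (vertical axis) of class II genes and of the listed genes beside them, in their order along chromosome 17 and not to distance. Filled points were called. The class II genes range from −0.81 to 1.11, and the 5 other genes between them from −0.089 to 0.25.

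Genes that act on class II promoters showed small differences in both directions. Of 14 class II transcription factors and cofactors, 2 rose and 2 fell (9.66% and 10.2% of all genes), with a median of −0.035. Rfx5, a subunit of the factor that binds the X box, read 10.06, 10.16 and 10.11 in wild type and 10.40, 10.47 and 10.43 in knockout, a rise of 0.33 ± 0.044 (SE; limma adjusted p = 0.00062). Another subunit gene of the same factor, Rfxank, rose by 0.17, and the corepressor gene Sin3a (−0.17) and the X box factor gene Creb1 (−0.15) fell. The third subunit gene, Rfxap, was at −0.067 and was not called. Rfx5 was called in every setting run. Rfxank and Creb1 lost their calls with any 1 array left out (limma adjusted p from 0.052 to 0.16), and Sin3a lost its call without wild-type replicate 1 or 2 or knockout replicate 2 or 3 (0.094 to 0.13).

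Among 16 measured regulators of Ciita, 3 rose and 2 fell (9.66% and 10.2% of all genes), with a median of 0.043. Ifngr2, a chain of the interferon gamma receptor, rose by 0.28 and Irf8, a transcription factor of B and myeloid cells, by 0.22. E2f1, a cell cycle transcription factor gene, fell by 0.36 and the kinase gene Jak2 by 0.30. The number that rose was 1 without wild-type replicate 1, wild-type replicate 2 or knockout replicate 3, and Irf8 lost its call without any of these (limma adjusted p from 0.051 to 0.071).

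Of 22 genes of endosomal proteolysis and traffic, 7 rose and 3 fell (9.66% and 10.2% of all genes), with a median of 0.021. Cst7, an inhibitor of cathepsins, rose by 0.57 ± 0.064 (SE; limma adjusted p = 0.00018), the cathepsin gene Ctsh by 0.40 and the endosomal aspartic protease gene Ctse by 0.37. Ctsh was dim, at 7.04, 7.02 and 7.17 in wild type, below the lower quartile of genes, and was dropped by both filters on dim genes. With genes below the median signal removed, the number that fell was 1. Lgmn, the asparaginyl endopeptidase that acts in antigen and invariant chain processing, read 11.08, 11.08 and 11.01 in wild type and 10.45, 10.44 and 10.51 in knockout. It fell by 0.59 ± 0.044 (SE; limma adjusted p = 1.1e-05), so Lgmn and Ctss changed in opposite directions. Among 5 genes of partners of the Cd74 protein, Cd44, its signalling co-receptor, rose by 0.21 and the chemokine receptor gene Cxcr4 fell by 0.30, and the median was −0.023. Cd44 lost its call without wild-type replicate 2, knockout replicate 2 or knockout replicate 3 (limma adjusted p from 0.061 to 0.065). Mif, the gene of the cytokine that binds Cd74, was at −0.043 and was not called.

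Of 10 co-stimulation genes, 5 rose and 2 fell (9.66% and 10.2% of all genes), with a median of 0.13. Icosl, the ligand of the T cell receptor ICOS, read 7.68, 7.89 and 8.02 in wild type and 9.22, 9.25 and 9.15 in knockout. It rose 2.54-fold (log2 difference 1.35 ± 0.079, SE; limma adjusted p = 2.1e-06). Tnfsf4, which encodes OX40 ligand, rose by 0.52 and Pdcd1lg2 by 0.26, and Tnfsf9 fell by 0.25. Many of these genes were dim, and 5 of the 10 lay below the median of genes on all arrays. With genes below the median signal removed, 2 genes of the list were called higher and 0 lower. Icosl, Tnfsf4, Pdcd1lg2 and Tnfsf9 were not tested there. The number that rose was 2 or 3 with any 1 array left out except knockout replicate 2, and Pdcd1lg2 lost its call without wild-type replicate 2 or 3 or knockout replicate 1 or 2 (limma adjusted p from 0.052 to 0.085).

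**Figure D4:**
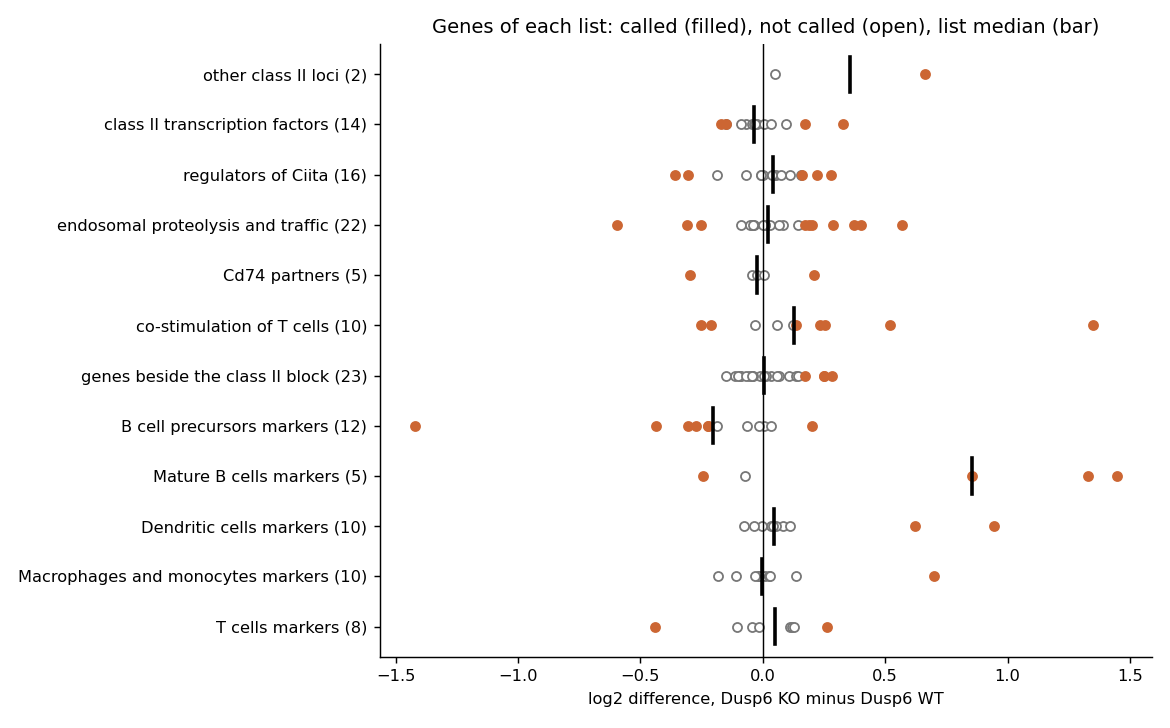
Log2 difference, knockout minus wild type (horizontal axis), of the genes of each list (rows, with the number measured). Filled points were called, open points were not, and black bars are list medians. The mature B cell markers have the highest median (0.85, the value of the dim gene Ms4a1) and the B cell precursor markers the lowest (−0.20).

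Dusp6 was 10.3-fold lower in the arrays labelled knockout (12.44 ± 0.072 against 9.08 ± 0.058; SD over 3 arrays), and the part of the gene that was deleted is not given in the labels. Arrays of one genotype correlated at 0.996 to 0.998 and arrays of different genotypes at 0.987 to 0.989 over all probe sets. Markers of B cell precursors were bright in both genotypes, with 0 of 12 below the lower quartile. Their mean log2 signal was 12.53 to 12.55 in wild type and 12.28 to 12.31 in knockout. By limma 6 of them fell and 1, Rag1, rose (0.20), beside 10.2% and 9.66% of all genes. Precursor markers that fell included Dntt, the polymerase of immunoglobulin junctions (−1.42), and the recombinase gene Rag2 (−0.43). Il7r, a cytokine receptor chain (−0.31), and the surrogate light chain gene Vpreb1 (−0.27) also fell. Rag1 lost its call without wild-type replicate 1 or 3 or knockout replicate 2 or 3 (limma adjusted p from 0.052 to 0.094). The mean of 5 mature B cell markers was 7.42 to 7.59 in wild type and 8.11 to 8.19 in knockout. In this list 3 rose and 1 fell (9.66% and 10.2% of all genes). Cxcr5 rose by 1.45, Cd22 by 1.33 and Ms4a1 by 0.85, and Cr2 fell by 0.25. Ms4a1, whose difference is also the list median, lay below the lower quartile of genes on every array, as did Fcer2a. With genes below the median signal removed, Cd22 was the 1 marker of this list called higher, since Cxcr5 and Ms4a1 were not tested there. Vpreb1 lost its call without knockout replicate 2 or 3 (limma adjusted p = 0.061 and 0.055), and Cr2 without wild-type replicate 1 or 2 or knockout replicate 2 (0.054 to 0.059).

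Dendritic cells and macrophages carry abundant class II molecules. Of 10 dendritic cell markers, 8 lay below the median of genes on all arrays. Ccr7 (0.94) and Flt3 (0.62) rose and 0 fell by limma (0 also at an unadjusted p under 0.05). This count of 2 in 10 is close to the share called over all genes, 19.8% (9.66% higher and 10.2% lower). The mean of the dendritic cell markers was 7.83 in wild type and 7.98 to 8.04 in knockout. The other 8 dendritic cell markers were not called (−0.075 to 0.11), and the list median was 0.047. Clec9a and Clec10a lay below the lower quartile. Of 10 macrophage and monocyte markers, 8 lay below the median of genes and Adgre1, Cd14 and Mertk below the lower quartile. In that list Lyz2 rose by 0.70 and 0 fell by limma (1 at an unadjusted p under 0.05), with a mean of 7.79 to 7.83 in wild type and 7.84 to 7.88 in knockout. Without knockout replicate 1 Cd68 fell (−0.24), and without wild-type replicate 3 Itgam fell (−0.20). Cd68 was also called lower with median centring, with both filters on dim genes and with trend and robust options (limma adjusted p from 0.030 to 0.046). T cell markers had a mean of 8.10 to 8.14 in wild type and 8.10 to 8.15 in knockout, with Cd5 higher (0.26), Lat lower (−0.44) and Cd3d and Cd3g below the lower quartile. The part of these shifts in the class II differences was not tested, and in bulk RNA fewer cells of a type and less RNA per cell cannot be told apart.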

How the data were processed

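Total RNA was hybridised to 6 Affymetrix arrays, 3 per genotype, and the sample titles gave the genotype and the replicate number. Each probe set has 1 deposited log2 signal per array, made by the authors with RMA and Partek 6.5 per the submitters' processing notes. How RMA was set is not given in the sources, and the values themselves (3.23 to 14.8) showed the log2 scale. The platform annotation gave exactly 1 symbol for 21789 of 35556 probe sets, several for 1621 and none for 12146. The Entrez identifiers of 21698 matched the reference table of GRCm38.p6, and 0 symbols were updated. That table gave names and gene order.

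The model was fitted to all 6 arrays in R 4.3.3 with limma 3.58.1 (lmFit and eBayes), with a genotype term alone. Its code was also run on simulated data with independent noise and a far smaller share of changed genes than was called here. That run cannot tell whether the arrays of a group are independent. Deviations from the group means of same-numbered arrays correlated at 0.0098, −0.12 and 0.053, and those of differently numbered arrays at −0.15 to 0.13. With 3 arrays per group these values cannot tell whether the numbers mark a shared batch. Precision was limited by the number of arrays.

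Members and gene lists were chosen with earlier results of these data known. Of 144 list entries, 137 were measured. From each list up to 4 called genes with the largest differences were named, and further genes (H2-Ea, Rfxap, Mif, Ppt2, Rag1, Cd68, Itgam, the genes inside the block and markers below the lower quartile) after their values were seen. The alternatives tried were a repeated quantile normalization, median centring, filters on dim genes, the mean of a gene's probe sets, a test of every probe set, trend and robust options, a replicate block and leaving out each array.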

Additional observations from a re-analysis of the deposited data

How the results depend on the processing

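The alternatives were the planned ones. Of the members, 5 were called higher in each of the 14 alternatives and 1 lower in 13. With genes below the median signal removed, 0 members were lower, because H2-Ab1 lies below that signal and was not tested there. The log2 difference of Cd74 ranged from 2.45 to 2.52, H2-Ab1 from −0.85 to −0.77, H2-Oa from 0.73 to 0.77, H2-DMa from 0.48 to 0.51, H2-Ob from 0.30 to 0.32 and Ctss from 0.28 to 0.38, each with a limma adjusted p of at most 0.026. H2-Aa, dropped by both filters on dim genes, ranged from −0.24 to −0.0081, and H2-Eb1 from 0.045 to 0.066, with no call. With 1 array left out the Ciita difference ran from −0.042 to 0.013, the latter without wild-type replicate 3, and the cause was not tested. With the replicate block, 5 members were higher and 1 lower, and 1681 genes were higher and 1764 lower over all genes. The block took away the calls of 6 genes of the other lists and added 0: Rfxank (limma adjusted p = 0.060), Creb1 (0.073) and Sin3a (0.076), which leaves Rfx5 as the 1 class II transcription factor called, and Spi1 (0.063), Lamp2 (0.060) and Cd40 (0.093). The median of all genes stayed between −0.011 and 0.0097. When every probe set was tested, genes not called included Rfxank, Sin3a, Creb1, Irf8, Cd44, Pdcd1lg2, Vpreb1, Rag1, Spi1 and Cr2. Further list genes lost their calls there. Co-stimulation genes called higher went from 5 to 2, and endosomal genes from 7 to 6 higher and from 3 to 2 lower. With median centring, Rfxank (limma adjusted p = 0.059) and Spi1 (0.056) lost their calls. The number called higher also went from 5 to 4 among co-stimulation genes and from 7 to 6 among endosomal genes. Spi1, a regulator of Ciita, also lost its call with any 1 array left out (limma adjusted p from 0.051 to 0.14). Dim probe sets such as H2-Aa were not tested against background.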
